A study of Mus musculus with 11 samples.

Results

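MHC class II is the set of molecules through which a cell shows peptides from its endosomes to CD4+ T cells. The 10 genes described here are those that build, load and switch on the class II molecule in the mouse: H2-Aa, H2-Ab1, H2-Eb1, Cd74, H2-DMa, H2-DMb1, H2-DMb2, H2-Oa, H2-Ob and Ciita. They were taken by name from the 54232 Ensembl identifiers of a raw count table of 11 orthotopic pancreatic tumors, and all 10 were found and passed the filter on low counts, which left 16536 genes to test. They were named by their role in the pathway, by a rule that uses no measured value, though with earlier results of these data known.

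The tumors grew in female C57BL/6 mice after injection of 1000 TB32048 cells, in Matrigel and DMEM, into the pancreas. TB32048 is 1 line of pancreatic carcinoma cells from a female mouse, and its own Pkn2 gene was intact. All hosts carried 1 copy of a tamoxifen-inducible Cre recombinase at the Rosa26 locus (RosaCreERT2), which is active in most cell types, and all received tamoxifen. The 6 KO hosts (tumors A to F) were PKN2 fl/fl, so that protein kinase N2 was deleted through the host, its immune cells included, and the 5 WT hosts (tumors A to E) were PKN2 +/+. RNA came from a portion of each tumor, so that fewer cells of a type and less RNA per cell cannot be told apart. Pkn2 itself was at 96.5 ± 34.5 CPM (counts relative to the library total, corrected by TMM factors) in WT tumors (SD, n = 5). Its log2 fold change was -0.002 ± 0.21 (SE). KO tumors were at 80.0 to 108 CPM, and WT A to E at 69.1, 62.8, 84.3, 138 and 128 CPM. Without WT A, B and C, a setting chosen after the values were seen, the log2 fold change was -0.46 (edgeR, adjusted p = 0.131). Because the carcinoma cells keep the gene, these values do not check the labels.

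Library totals ranged from 16294128 counts in WT B to 31121422 in WT E. Of the WT libraries, A, B and C stood apart: ribosomal RNA took 1.31%, 6.39% and 1.40% of their counts, against 0.241% to 0.765% in the other 8 libraries, and in them alone expression relative to the other tumors fell with exon length (Spearman across genes -0.496, -0.446 and -0.171, against 0.10 to 0.37). KO E, WT A and WT E also held RNA of acinar cells, the enzyme-secreting cells of normal pancreas, with Cpa1 at 51.1, 13.9 and 156 CPM, while the other 8 tumors were under 1 CPM. Keratin 8 (Krt8), a marker of the carcinoma epithelium, was at 772 CPM or more in each tumor.

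A class II molecule is a pair of an α and a β chain. In the mouse, I-A is made from H2-Aa and H2-Ab1, and I-E uses the β chain H2-Eb1; C57BL/6 mice carry the H2-b haplotype, in which the gene for the I-E α chain is defective. CD74, the invariant chain, guides new class II molecules to endosomes and blocks their groove. The H2-DM dimer (H2-DMa with H2-DMb1 or H2-DMb2) then exchanges the last piece of CD74 for peptide, and the H2-O dimer (H2-Oa with H2-Ob), best known in B cells, restrains H2-DM. CIITA, a co-activator that does not bind DNA itself, raises the transcription of class II genes. It is recruited by the RFX complex, CREB and NF-Y, the enhanceosome, at the X and Y boxes before the gene start. Ciita is on without induction in dendritic cells and B cells and is induced by interferon gamma in many other cells.

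The promoter stretches are shown because the X and Y boxes are where CIITA is recruited. RefSeq promoters, of 250 bases before and 50 bases after the gene start on GRCm38.p6, matched 7 of the 10 members. They were searched on both strands for CTGATTGG (the Y box core), for the shorter ATTGG that it contains, and for AACNGATG, which resembles the X box. The stretches printed run 5′ to 3′ on the strand of the gene, with these letters in capitals where they lie on that strand. They cover 100 bases, from 130 to 31 before the start, and are kept to 30 bases for H2-DMb1 and H2-Oa, where a GENCODE M21 first exon reaches into the stretch, so that the AACNGATG of H2-DMb1 lies outside it.
H2-Aa, chr17:34287854-34287953, minus strand: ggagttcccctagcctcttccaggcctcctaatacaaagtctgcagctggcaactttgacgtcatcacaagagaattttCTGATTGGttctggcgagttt
H2-Eb1, chr17:34305737-34305836, plus strand: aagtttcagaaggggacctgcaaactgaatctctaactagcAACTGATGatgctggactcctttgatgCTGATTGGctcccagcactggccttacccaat
H2-DMb1, chr17:34153110-34153139, plus strand: ctaggctgattcactcagtgATTGGtctga
H2-DMb2, chr17:34145119-34145218, plus strand: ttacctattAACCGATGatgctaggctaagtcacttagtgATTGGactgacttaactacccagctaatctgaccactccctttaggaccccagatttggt
H2-Oa, chr17:34092316-34092345, plus strand: tatctcagagaactgctCTGATTGGctgct
H2-Ob, chr17:34238775-34238874, plus strand: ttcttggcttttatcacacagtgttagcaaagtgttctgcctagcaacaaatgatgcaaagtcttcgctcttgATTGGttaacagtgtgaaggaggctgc
H2-Eb2, a further class II β chain gene, chr17:34325545-34325644, plus strand: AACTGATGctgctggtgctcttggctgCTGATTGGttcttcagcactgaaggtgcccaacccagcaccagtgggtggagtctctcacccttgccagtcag

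ATTGG lay on the strand of the gene between 43 and 90 bases before the start in 6 of the 7 members with a promoter, and 100 bases before it in H2-Eb2. The full CTGATTGG was found in H2-Aa, H2-Eb1 and H2-Oa, and in H2-Eb2. AACNGATG preceded ATTGG in H2-Eb1, H2-DMb1 and H2-DMb2, with starts 30, 31 and 31 bases apart, and in H2-Eb2, 30 bases apart. Of all 32851 promoters in the table, 37.4% held ATTGG on either strand, 4.1% held CTGATTGG and 2.32% held AACNGATG. The pair on the strand of the gene with starts 20 to 40 bases apart, a spacing set after these promoters were seen, was in 5 of them (0.0152%), the 4 named and that of BC051142. Of the 2 promoter entries for H2-DMa, 1 held none of the letters searched and the other held ATTGG 198 bases before the start.

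All 10 members had a higher mean level in KO than in WT tumors, with log2 fold changes from 0.18 to 1.14, but none passed the test over all genes (edgeR quasi-likelihood, adjusted p from 0.0869 to 0.768). With this test only 3 genes were higher in KO (0.0181% of 16536) and 0 lower (0%), so a count of 0 among 10 members is no result about them. At an unadjusted p under 0.05, 2 of the 10 members were higher in KO, Ciita and H2-Ob, where 8.57% of all genes were, and 0 were lower, where 15.5% were. The members at that level numbered 6 with an offset for exon length, chosen after the values were seen. They numbered 5 without WT A and 1 with ribosomal RNA share as a model covariate. In these settings 3806, 3357 and 1470 of all genes were at that level in either direction. The median log2 fold change of the members was 0.48, against -0.03 over all genes tested, of which 48% were above 0 and 52% below. It was 0.23 without KO F and 0.98 without WT A, B and C, the latter chosen after the values were seen. Only H2-Ob had no overlap between the groups (1 of 10 members higher and 0 lower, against 1.59% and 1.98% of all genes). H2-Ob was also the 1 member with an adjusted p under 0.1, where 1.96% of all genes were higher and 3.33% lower. DESeq2 called 1 member, H2-Ob (3.21% of 18538 genes with an adjusted p were called higher and 4.85% lower). The plot of CPM by tumor shows these levels.

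**Figure D1:**
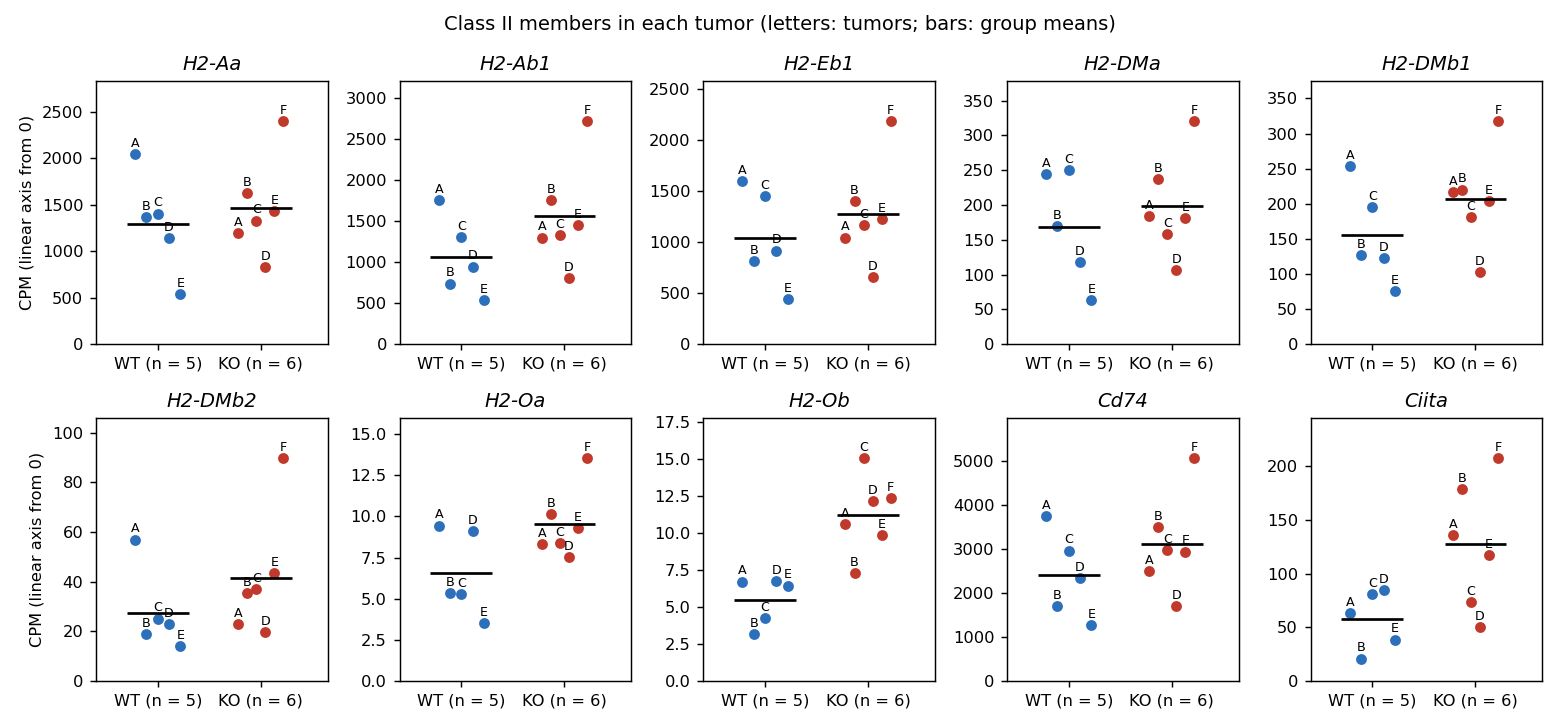
CPM (linear axes from 0) of the 10 class II members in 5 WT tumors (blue) and 6 KO tumors (red); letters name the tumors and bars are group means. KO F is the highest tumor in 9 panels and WT E the lowest in 8, and only in H2-Ob do all KO tumors (7.30 to 15.1 CPM) lie above all WT tumors (3.17 to 6.73 CPM).

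Per kilobase of exon, the main scale on which levels of different genes are compared here, the members spanned a wide range. The length counts all annotated exons of a gene, merged over its transcripts, so the order depends on the annotation. Cd74 was the most abundant at 1661 ± 643 CPM per kb (SD over 11 tumors). The chains followed, H2-Eb1 at 603 ± 249, H2-Ab1 at 519 ± 237 and H2-Aa at 366 ± 135 CPM per kb. Before division by length, H2-Aa lay above H2-Eb1, with means of 1468 and 1279 CPM in KO and 1299 and 1043 CPM in WT tumors. Their exon lengths were 3798 and 1944 bases. The peptide editing genes were lower, H2-DMb1 at 109 ± 42.5, H2-DMa at 53.6 ± 21.5, H2-DMb2 at 20.1 ± 12.7, H2-Oa at 5.81 ± 1.95 and H2-Ob at 1.60 ± 0.686 CPM per kb. Ciita was at 10.03 ± 6.15 CPM per kb, between H2-DMb2 and H2-Oa. The ranges of neighbors in this order overlapped at each step, and the order within a tumor was the same in all 11 tumors for 6 of the 9 neighboring pairs. It was turned in 1 tumor for H2-Ab1 with H2-Aa and for H2-DMb2 with Ciita, and in 3 tumors for Ciita with H2-Oa.

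The 3 chain genes overlapped between the genotypes. H2-Ab1, the I-A β chain (ENSMUSG00000073421, chromosome 17, 34257689 to 34269419), was at 1299.9, 1754, 1329.7, 804, 1451 and 2719.5 CPM in KO A to F and at 1760.1, 738, 1305, 946 and 539.6 CPM in WT A to E. The groups overlapped: WT A exceeded 5 of the KO tumors, and KO D lay below 3 of the WT tumors. The log2 fold change was 0.56 ± 0.35 (SE, adjusted p = 0.334 by edgeR). H2-Aa, the I-A α chain (ENSMUSG00000036594, chromosome 17, 34282744 to 34287823), was at 1193, 1623, 1329.7, 831, 1431 and 2401 CPM in KO A to F and at 2043, 1365, 1406, 1138 and 543 CPM in WT A to E. Its group means nearly coincided, with a log2 fold change of 0.18 ± 0.33 (adjusted p = 0.768), and without KO F or without WT E the sign turned, to -0.02 in both. H2-Eb1, the I-E β chain (ENSMUSG00000060586, chromosome 17, 34305867 to 34316674), was at 1043, 1399, 1167, 654, 1227 and 2183 CPM in KO A to F and at 1597, 812, 1448, 917 and 439 CPM in WT A to E, a log2 fold change of 0.29 ± 0.35 (adjusted p = 0.628). H2-Ea-ps, the defective I-E α gene, had 2 counts in WT A, 1 in WT D and 0 in the other 9 tumors.

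Cd74, the invariant chain (ENSMUSG00000024610, chromosome 18), followed the chains. It was at 2499, 3494, 2966, 1692, 2941 and 5071 CPM in KO A to F and at 3739, 1701, 2960.4, 2335 and 1275 CPM in WT A to E. As for the chains, KO F was the highest and WT E the lowest. The log2 fold change was 0.37 ± 0.33 (SE, adjusted p = 0.499 by edgeR). Together Cd74, H2-Aa, H2-Ab1 and H2-Eb1 took between 0.305% (WT E) and 1.28% (KO F) of all counts.

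The H2-DM genes, which load peptide, also overlapped between genotypes. H2-DMa (ENSMUSG00000037649, chromosome 17, 34119541 to 34139101) was at 184, 237, 158, 107, 182 and 320.3 CPM in KO A to F and at 244, 169, 250.4, 118 and 63.0 CPM in WT A to E, with a log2 fold change of 0.23 ± 0.35 (SE, adjusted p = 0.715 by edgeR). H2-DMb1 (ENSMUSG00000079547, chromosome 17, 34153072 to 34160230) was at 216, 220.3, 180.4, 103, 204 and 318 CPM in KO A to F and at 254, 127, 196, 123 and 75.1 CPM in WT A to E, a log2 fold change of 0.42 ± 0.32 (adjusted p = 0.430). For both, KO D and WT E were the lowest of their groups. H2-DMb2 (ENSMUSG00000037548, chromosome 17, 34143307 to 34151555), a neighboring copy of the β chain gene, was at 22.8, 35.5, 36.8, 19.8, 43.5 and 89.8 CPM in KO A to F and at 56.9, 18.7, 25.1, 23.0 and 14.02 CPM in WT A to E. KO F stood above the rest, and the log2 fold change was 0.59 ± 0.42 (SE, adjusted p = 0.408 by edgeR). H2-DMb1 and H2-DMb2 shared 369 stretches of 50 bases in their coding transcripts (27.2% of those of H2-DMb1 and 21.2% of those of H2-DMb2). Only uniquely aligned reads were counted, so reads alike in both genes were left out. Before trimming the reads were longer than 50 bases, and how many were lost was not tested. The count of H2-DMa is uncertain where another annotated gene, CR974462.3, overlaps it on the same strand.

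In the H2-O genes, which restrain H2-DM, the 3 lowest of the 11 tumors were all WT. H2-Ob (ENSMUSG00000041538, chromosome 17, 34238903 to 34254414), its β chain, was at 10.6, 7.30, 15.1, 12.1, 9.86 and 12.4 CPM in KO A to F and at 6.72, 3.17, 4.22, 6.73 and 6.45 CPM in WT A to E. Every KO tumor was above every WT tumor, and the tumor highest for the chains, KO F, was not the highest here. The log2 fold change was 1.03 ± 0.26 (SE), with an edgeR unadjusted p of 0.00164 and an adjusted p of 0.0869. H2-Ob passed the threshold with DESeq2 (adjusted p = 0.0058) and with edgeR without WT D or without WT E (lowest adjusted p = 0.0364). Without WT D, 1.21% of all genes passed as higher and 3.87% as lower, and without WT E 3.63% and 7.46%. It had an adjusted p of 0.361 with ribosomal RNA share as a model covariate and of 0.197 without WT A, B and C, with log2 fold changes of 0.87 and 0.77. H2-Oa (ENSMUSG00000024334, chromosome 17, 34092340 to 34095234), the α chain, was at 8.33, 10.1, 8.38, 7.51, 9.29 and 13.6 CPM in KO A to F and at 9.45, 5.33, 5.30, 9.12 and 3.53 CPM in WT A to E. WT A and WT D lay within the KO range and the other 3 WT tumors below it, and the log2 fold change was 0.54 ± 0.28 (SE, adjusted p = 0.253 by edgeR).

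Ciita, the gene of the class II co-activator (ENSMUSG00000022504, chromosome 16, 10480059 to 10528418), was, with H2-Ob, 1 of the 2 members with an unadjusted p under 0.05. It was at 136, 179, 73.6, 50.3, 117 and 208 CPM in KO A to F and at 63.1, 20.8, 81.0, 84.9 and 38.5 CPM in WT A to E. KO A, B, E and F were above all WT tumors, whereas KO C and KO D lay inside the WT range. The log2 fold change was 1.14 ± 0.41 (SE), with an edgeR unadjusted p of 0.0152 and an adjusted p of 0.129. It was 0.57 (adjusted p = 0.818) with ribosomal RNA share as a model covariate, and 1.05 (adjusted p = 0.354) without WT A, B and C. Ciita spans 9535 bases of exon, the most of the 10 members. Its lowest level, 20.8 CPM, was in WT B, the library with the most ribosomal RNA. With each tumor's trend with exon length removed by an offset, chosen after the values were seen, the log2 fold change was 0.90 (edgeR, adjusted p = 0.202). Beyond these fits, the part of exon length and ribosomal RNA in the fold change was not tested.

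The pathway around the members was examined through 7 further lists, for which the plot of fold changes gives each gene. Of their 32 genes 31 could be tested, 26 with a positive log2 fold change, and 0 passed the threshold in either direction with edgeR, against 0.0181% and 0% of all genes. With DESeq2, 3 were higher in KO, H2-Eb2, March1 and Icosl, and 1 was lower, Rfxank, against 3.21% and 4.85% of all genes. The median log2 fold change of the 31 genes was 0.25.

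**Figure D2:**
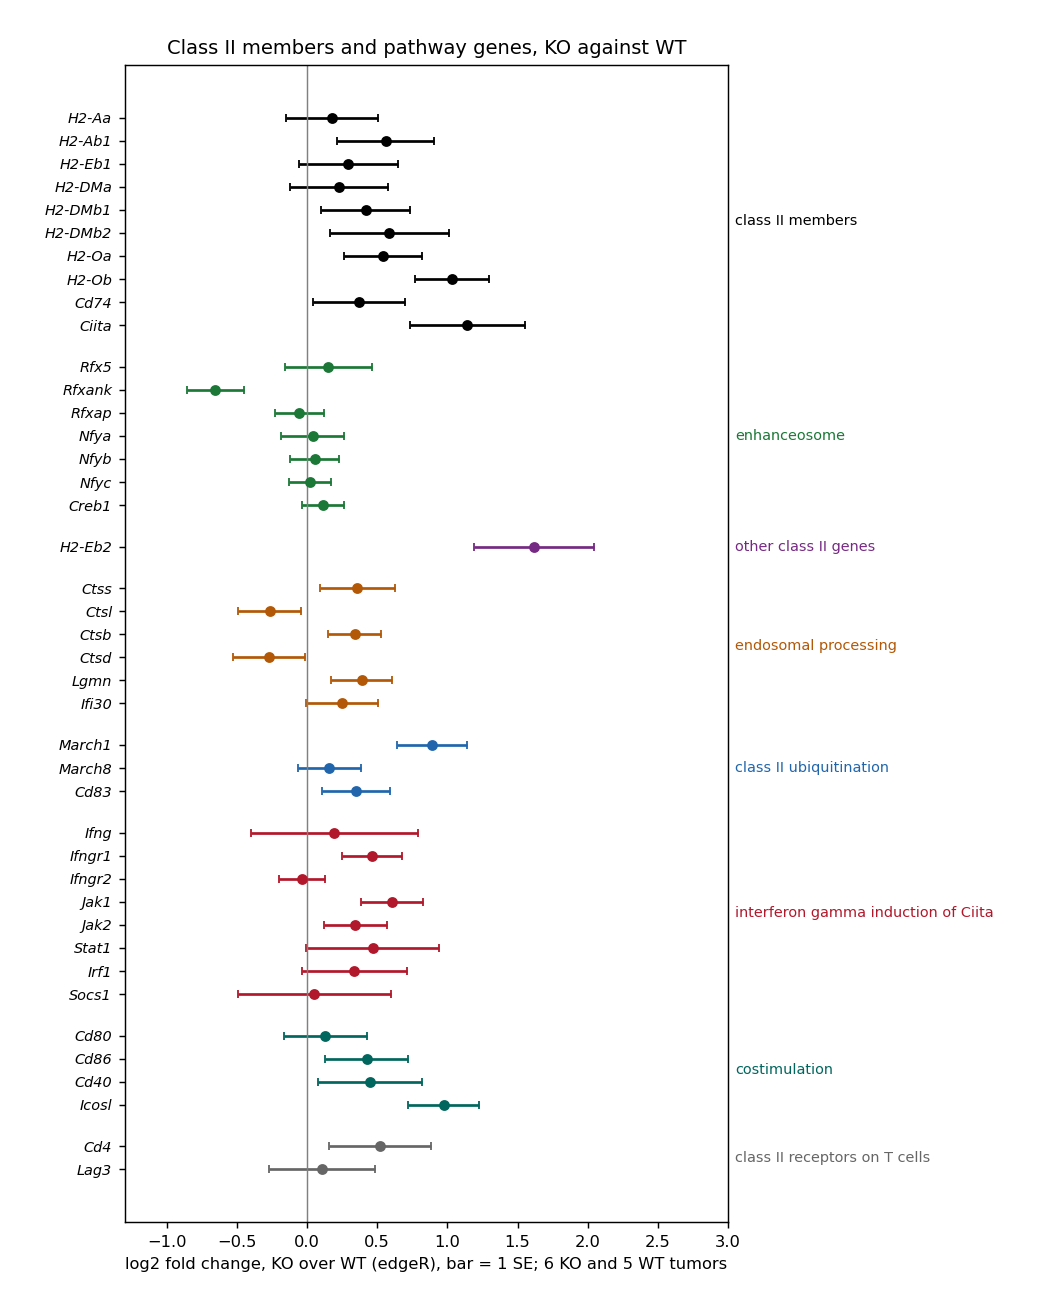
Log2 fold change of KO over WT (edgeR, bars are 1 SE, 6 KO and 5 WT tumors) for the 10 class II members (black) and 31 genes of 7 pathway lists (colors). The members lie between 0.18 and 1.14, H2-Eb2 is farthest to the right at 1.62 and Rfxank farthest to the left at -0.66.

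Among the other class II genes, H2-Eb2 was at 3.46, 2.63, 3.61, 3.98, 5.03 and 5.96 CPM in KO A to F and at 2.04, 0.333, 0.638, 1.88 and 1.68 CPM in WT A to E. Like H2-Ob it showed no overlap between the groups, at a low level (4 counts in WT B). The log2 fold change was 1.62 ± 0.43 (SE, adjusted p = 0.0909 by edgeR and 0.00341 by DESeq2). H2-Eb2 and H2-Eb1 shared no stretch of 50 bases.

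The enhanceosome genes, whose products hold CIITA at the promoter, overlapped in summed level, at 241 to 271 CPM in KO and 223 to 283 CPM in WT tumors. Of the 7 genes, 0 were higher and 1 lower at an unadjusted p under 0.05, against 8.57% and 15.5% of all genes, and 0 passed with adjustment. The lower one was Rfxank, a subunit of RFX, at 10.9, 14.98, 11.7, 12.8, 16.4 and 13.2 CPM in KO A to F and at 19.3, 31.6, 19.2, 20.2 and 14.9 CPM in WT A to E. WT B was the highest and WT E alone lay in the KO range. The log2 fold change was -0.66 ± 0.20 (SE, adjusted p = 0.105 by edgeR and 0.0433 by DESeq2). Rfxank also passed with edgeR without WT E (adjusted p = 0.0371). The log2 fold change was -0.38 (edgeR, adjusted p = 0.640) with ribosomal RNA share as a model covariate. It was -0.39 (edgeR, adjusted p = 0.339) without WT A, B and C, and -0.46 without WT B. Of the genes above 0, Creb1 had the smallest p, with a log2 fold change of 0.11 ± 0.15 (SE, adjusted p = 0.668 by edgeR), and Rfx5, a DNA-binding subunit of RFX, had one of 0.15 ± 0.31.

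Genes of the interferon gamma route to Ciita had positive log2 fold changes in 7 of 8 cases (median 0.34), with 2 higher and 0 lower at an unadjusted p under 0.05, against 8.57% and 15.5% of all genes, and 0 passing with adjustment. Ifng, the cytokine, was itself at 6.30, 10.5, 5.28, 1.01, 4.06 and 12.2 CPM in KO A to F and at 13.9, 4.08, 6.28, 1.84 and 2.62 CPM in WT A to E. The highest tumor was WT A and the lowest KO D, and the log2 fold change was 0.19 ± 0.60 (SE, adjusted p = 0.867 by edgeR). Jak1, the kinase bound to its receptor, was at 153 to 209 CPM in KO and 69.2 to 167 CPM in WT tumors. Its log2 fold change was 0.60 ± 0.22 (adjusted p = 0.133). Of the alternatives, Jak1 passed only with edgeR without WT E (adjusted p = 0.0434), where 3.63% of all genes were higher. Ifngr1, the ligand-binding receptor chain, had a log2 fold change of 0.46 ± 0.21 (adjusted p = 0.206), and Ifngr2, the only one of the 8 below 0, one of -0.03 ± 0.16. For Jak1 the 3 lowest tumors were WT A, B and C, the libraries whose levels fell with exon length; WT D and WT E lay inside the KO range.

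In the class II ubiquitination list, March1, a ligase that sends class II molecules for degradation, was at 23.4, 29.8, 28.4, 24.3, 24.6 and 45.6 CPM in KO A to F and at 21.5, 15.1, 8.59, 15.4 and 18.5 CPM in WT A to E. The groups did not overlap, and the log2 fold change was 0.89 ± 0.25 (SE, adjusted p = 0.0936 by edgeR and 0.0177 by DESeq2). March8, a related ligase, and Cd83, which opposes March1, had values of 0.16 and 0.35. Of the 3 genes, 1 was higher at an unadjusted p under 0.05 and 0 lower, against 8.57% and 15.5% of all genes.

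Among costimulatory genes, the second signal that accompanies antigen, Icosl was at 25.3, 27.8, 20.1, 25.0, 30.8 and 36.1 CPM in KO A to F and at 18.8, 6.9998, 11.2, 18.4 and 14.5 CPM in WT A to E. Here too the groups did not overlap, with a log2 fold change of 0.97 ± 0.25 (SE, adjusted p = 0.0904 by edgeR and 0.0110 by DESeq2). Cd80, Cd86 and Cd40, also on antigen-presenting cells, had log2 fold changes of 0.13, 0.42 and 0.45. In this list, 1 of the 4 genes was higher at an unadjusted p under 0.05 and 0 lower, against 8.57% and 15.5% of all genes. The non-overlap of H2-Ob, H2-Eb2, March1 and Icosl was read off after the values were seen. Of the 31 pathway genes tested, 3 were higher and 0 lower without overlap, against 1.59% and 1.98% of all genes. With ribosomal RNA share as a model covariate, H2-Eb2, March1 and Icosl had adjusted p of 0.458, 0.467 and 0.486 by edgeR. Without WT A, B and C these were 0.149, 0.186 and 0.159.

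Of the 6 endosomal processing genes, 0 were higher and 0 lower at an unadjusted p under 0.05, against 8.57% and 15.5% of all genes. The smallest p above 0 was that of Ctsb (cathepsin B), at 955 to 1413 CPM in KO and 772 to 1117 CPM in WT tumors, a log2 fold change of 0.34 ± 0.19 (SE, adjusted p = 0.282 by edgeR). The smallest below 0 was that of Ctsl (cathepsin L), with -0.27 ± 0.23 (adjusted p = 0.481). Cd4 and Lag3, which encode T cell surface proteins that bind class II, had log2 fold changes of 0.52 ± 0.36 and 0.11 ± 0.38 (edgeR, adjusted p = 0.394 and 0.886).

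Ratios within a tumor do not move with library scaling, apart from the pseudocount of 1 CPM, and 14 of them were fixed for comparison with exact two-sided permutation tests, for which the smallest p is 0.00216. None passed after adjustment over the 14, and 4 had an unadjusted p under 0.05; in all 14 the groups overlapped. The ratio of H2-Ab1 to H2-Aa, the I-A chains, had a log2 mean of 0.06 ± 0.09 in KO (SD, n = 6) and -0.30 ± 0.34 in WT tumors (SD, n = 5), a difference of 0.36 (exact permutation p = 0.00433, adjusted p = 0.0505). WT B, at -0.89, lay far below the KO range of -0.05 to 0.18, and WT E, at -0.01, lay inside it. Without WT B the difference was 0.21. Relative to H2-Ab1, H2-Eb1 differed by -0.24 (exact permutation p = 0.0108, adjusted p = 0.0505) and Cd74 by -0.19 (exact permutation p = 0.00866, adjusted p = 0.0505). H2-DMa, H2-DMb1, H2-DMb2, H2-Oa, H2-Ob and Ciita, each set against its partner, differed by -0.27, 0.15, 0.09, 0.22, 0.47 and 0.55, with adjusted p from 0.352 to 0.767 by the same exact permutation test.

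**Figure D3:**
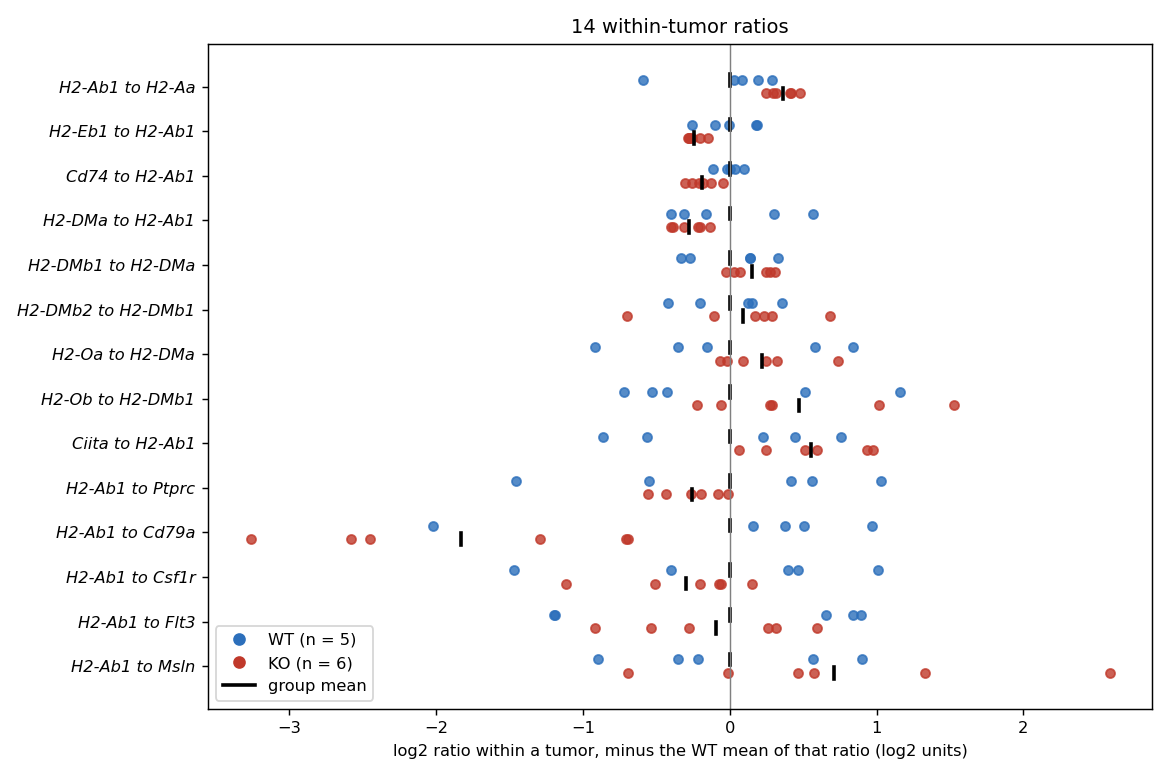
The 14 log2 ratios in each tumor, shifted so that the WT mean of each ratio is 0 (log2 units; blue WT, red KO, black ticks group means). KO tumors sit to the right for H2-Ab1 to H2-Aa (mean difference 0.36) and to the left for H2-Ab1 to Cd79a (-1.83), with WT E among the KO tumors in the latter.

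The members were next set beside markers of the cells that can carry class II, and their part in the members' levels was not tested. B cell markers differed most: all 6 had positive log2 fold changes (median 2.36) and an unadjusted p under 0.05, where 8.57% of all genes were higher. After adjustment, 0 of 6 passed with edgeR and 6 of 6 with DESeq2, where 0.0181% and 3.21% of all genes were higher. The summed level of the 6 markers was 55.2 to 133 CPM in KO and 14.9 to 49.9955 CPM in WT tumors. Cd79a, a subunit of the B cell receptor, was at 27.5, 10.5, 30.8, 29.9, 13.2 and 16.6 CPM in KO A to F and at 2.60, 1.08, 3.68, 1.92 and 7.77 CPM in WT A to E, with no overlap. The ratio of H2-Ab1 to Cd79a was lower in KO by 1.83 on the log2 scale (exact permutation p = 0.0281, adjusted p = 0.0985).

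Of the 8 macrophage markers, all had positive log2 fold changes (median 0.33) and 3 an unadjusted p under 0.05 (8.57% of all genes were higher at that level). With adjustment, 0 passed with edgeR and 2, Csf1r and Mertk, with DESeq2, where 0.0181% and 3.21% of all genes were higher. With ribosomal RNA share as a model covariate, Csf1r and Mertk had adjusted p of 0.406 and 0.498 by edgeR. Without WT A, B and C these were 0.321 and 0.382. The summed level of the 8 markers was 2059.9 to 3817 CPM in KO and 1522 to 2769 CPM in WT tumors. Dendritic cell markers overlapped throughout, with 0 of 8 at an unadjusted p under 0.05 and summed levels of 89.1 to 255 CPM in KO and 82.7 to 148 CPM in WT tumors. Markers of the mesothelial or antigen-presenting fibroblast type summed to 148 to 408 CPM in KO and 156 to 465 CPM in WT tumors, with 0 of 4 at that level and Lrrn4 at 0 in WT A and WT B. Against Ptprc (all leukocytes), Csf1r (macrophages), Flt3 (dendritic cells) and Msln (mesothelium), the log2 ratio of H2-Ab1 differed by -0.26, -0.30, -0.09 and 0.71 (adjusted p from 0.478 to 0.870, exact permutation tests). In the ratios to Ptprc, Csf1r and Flt3, WT A, B and C, the libraries that stood apart, lay above all KO tumors and above WT D and WT E.

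Across the 11 tumors the members fell into a tight block and 4 looser genes, given here as a description (Pearson r of log2(CPM + 1)). Among H2-Aa, H2-Ab1, H2-Eb1, Cd74, H2-DMa and H2-DMb1, r ran from 0.889 (H2-DMa with Cd74) to 0.988 (H2-Ab1 with Cd74). H2-DMb2 was between 0.770 and 0.927 with these 6, H2-Oa between 0.643 and 0.840, and Ciita between 0.519 and 0.807. H2-Ob was the least like the rest, from 0.008 with H2-DMa to 0.567 with H2-Oa. Tumors share their libraries across all these values, so depth and RNA quality enter each r.

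**Figure D4:**
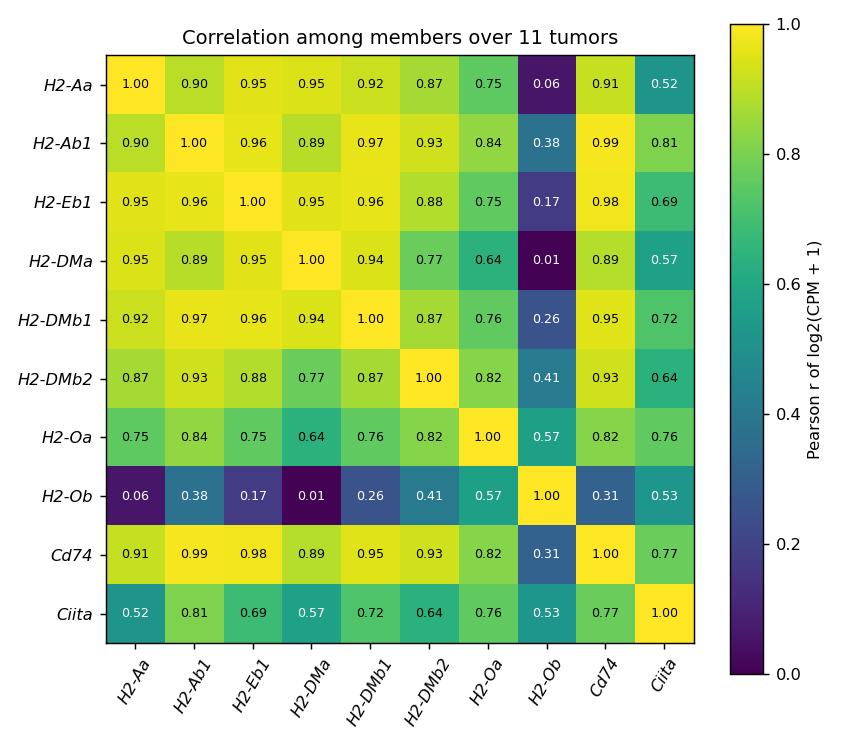
Pearson r of log2(CPM + 1) over the 11 tumors for each pair of members (color scale from 0 to 1). The chains, Cd74, H2-DMa and H2-DMb1 form a block of r from 0.889 to 0.988, while the row of H2-Ob stays at or under 0.567.

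Relations of the other 9 members with Ciita were computed after these values were seen. Over 11 tumors, r was 0.807 for H2-Ab1 (Spearman rho 0.691) and 0.770 for Cd74 (rho 0.627), and 0.519 for H2-Aa (rho 0.518). By permutation test, 5 of the 9 had an adjusted p under 0.05 for Pearson's r (0.0212 for H2-Ab1) and 0 of 9 for Spearman's rho (0.0672 for H2-Ab1). The share of all genes at that level was not computed, and most members are correlated with each other. The count is therefore no result particular to the members. Outside the lists, r with Ciita reached 0.978 (Parp14). Without the 2 tumors farthest from the median of Ciita, r was 0.720 for H2-Ab1 and 0.050 for H2-Ob, against 0.527 for H2-Ob over all 11.

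Within the 6 KO tumors alone r with Ciita was higher than over all 11 for 8 of the 9 members, and it was opposite in sign for H2-Ob. By exact permutation test, 7 of the 9 had an adjusted p under 0.05 for Pearson's r and 2 of the 9, H2-DMa and H2-DMb1, for Spearman's rho. Here too the share of all genes was not computed, so these counts are no result particular to the members. For H2-DMb1, r was 0.929 and rho 1.00 (exact permutation, adjusted p = 0.0125 for both), and without the 2 farthest tumors r was 0.825. H2-DMa had an r of 0.957 and a rho of 1.00 (exact permutation, adjusted p = 0.0188 and 0.0125), and H2-Ab1 an r of 0.894 and a rho of 0.829 (exact permutation, adjusted p = 0.0417 and 0.0875). For H2-Ob, r was -0.516 (exact permutation, adjusted p = 0.297). No correlation was computed over the 5 WT tumors alone.

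H2-Ob was in turn the only member with a positive r to Cd79a among the KO tumors, with r = 0.789 and rho = 0.829 (exact permutation p = 0.0486 for r, adjusted over 10 members 0.312). The other 9 had r from -0.703 (Ciita) to -0.496 (H2-DMb2), and 0 of 10 passed with adjustment. Without KO B and KO E, the farthest from the median of Cd79a, r for H2-Ob was 0.189, so that this relation rests on those tumors.

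**Figure D5:**
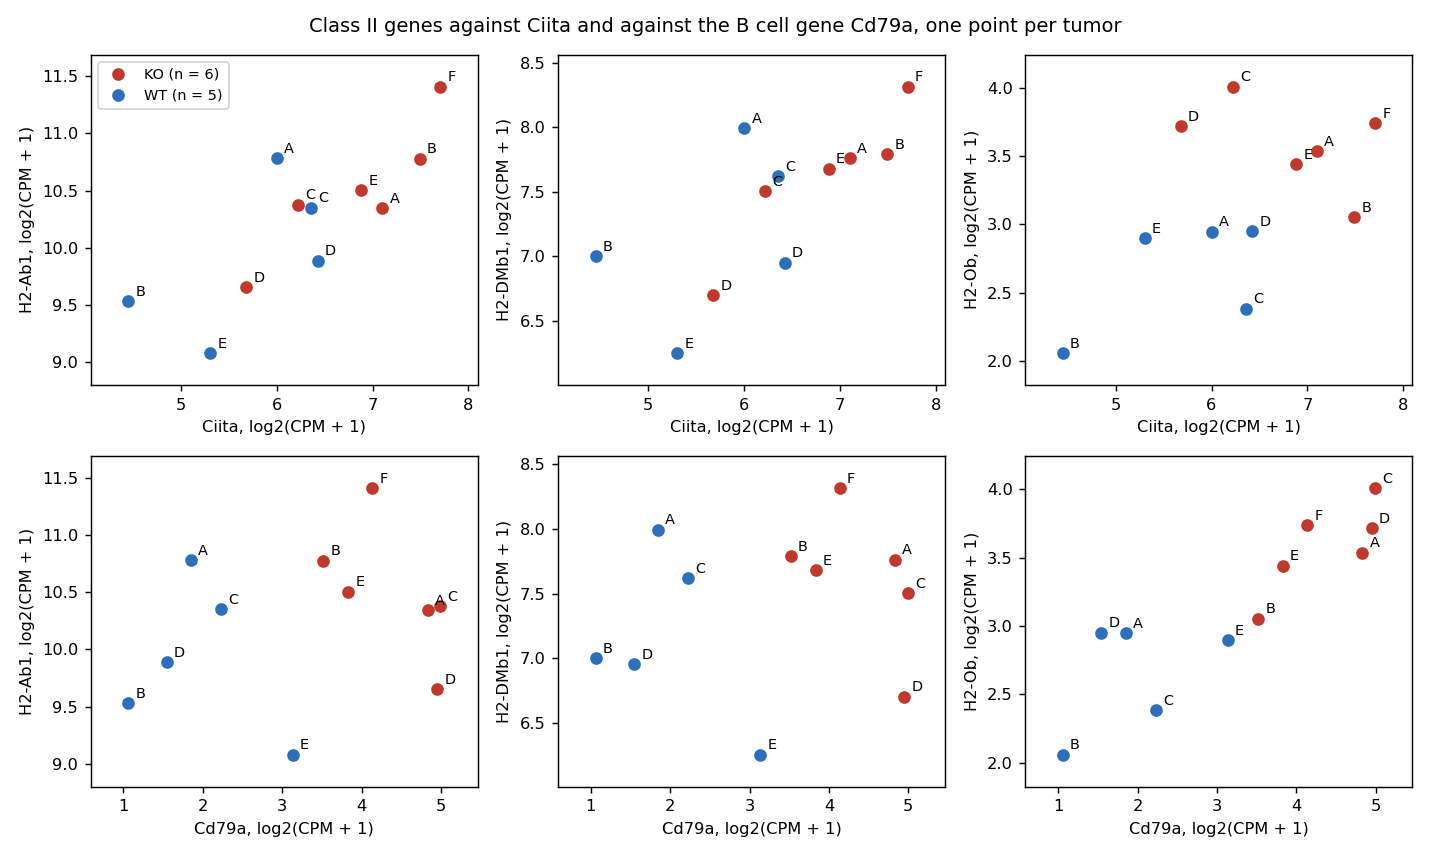
H2-Ab1, H2-DMb1 and H2-Ob against Ciita (upper panels) and against the B cell gene Cd79a (lower panels), all in log2(CPM + 1), 1 point per tumor with its letter (red KO, n = 6; blue WT, n = 5). Among KO tumors H2-DMb1 is higher where Ciita is higher (r = 0.929), and H2-Ob where Cd79a is (r = 0.789, resting on KO B and KO E).

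Outside the lists, the 5 tested genes most like the mean z score of H2-Aa, H2-Ab1, H2-Eb1 and Cd74 over the 11 tumors were Ubd (r = 0.978), H2-M3 (0.958), Il18bp (0.949), Ifi204 (0.940) and Cxcl10 (0.926). Ubd encodes a ubiquitin-like modifier and Cxcl10 a chemokine that draws T cells. Ubd ranged from 62.5 to 783 CPM in KO and from 35.8 to 602 CPM in WT tumors (edgeR, adjusted p = 0.619). The 5 most like Ciita were Parp14 (0.978), Dtx3l (0.972), Naaa (0.969), Tgm2 (0.968) and Gbp5 (0.966). Gbp5, a guanylate-binding protein, ranged from 43.4 to 648 CPM in KO and from 16.5 to 116 CPM in WT tumors, a log2 fold change of 1.89 (edgeR, adjusted p = 0.119).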

How the data were processed

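RNA of 11 tumors (6 KO, 5 WT; genotype and letter from the sample titles) was sequenced from strand-specific paired-end libraries. According to the submitters' processing notes and the study's methods, bcl2fastq 2.19, Trimmomatic, HISAT2 2.1.0 (mm10, GRCm38) and HTSeq 0.11.2 were used, and uniquely aligned exonic reads were counted. The authors deposited raw counts per gene and a table of normalised values, a signal equal to the raw count divided by 1 factor per sample. Symbols and coordinates came from GENCODE M21 (GRCm38). Counts were tested with edgeR 4.0.16 (R 4.3.3; quasi-likelihood, TMM, filterByExpr, no covariates, Benjamini-Hochberg over 16536 genes, threshold 0.05). Each SE was obtained from the F statistic, as the size of the log2 fold change over the root of F. DESeq2 1.42.0 was run as an alternative. Counting error alone sets a floor of 3 counts, 0.0883 to 0.250 CPM. No 2 libraries agreed within sampling noise (lowest chi-square per degree of freedom 33.9). The p-values measure the spread between these tumors.

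The members and lists were chosen with earlier results of these data known. All 10 members are named; of each pathway list, the genes with the smallest p in each direction and others for context; and the 5 genes closest to the chains and to Ciita by correlation. The correlations with Ciita and Cd79a and the spacing of promoter letters were added after values were seen. Cell marker lists not described in the report are given with the other observations.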

Additional observations from a re-analysis of the deposited data

Results flagged for a closer look

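In the 5 WT tumors, the log2 ratio of H2-Ab1 to Cd79a in WT E was 5.95, far from the other WT tumors, at 8.12 to 8.93 (gap of 0.729 of the range, against a critical value of 0.71). WT E had the lowest H2-Ab1 of the 11 tumors (539.6 CPM) and the highest Cd79a of the WT tumors (7.77 CPM), and it also held acinar RNA, whose part was not tested. It was 1 of 48 groups of values examined for the members and ratios, of which chance gives about 2.4.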

How the results depend on the processing

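The member calls depended on single WT libraries. Members called higher numbered 1 (H2-Ob) with DESeq2 and 0 to 1 when each tumor was left out, 1 without WT D and 1 without WT E. Among all genes, edgeR called 3 higher and 0 lower. DESeq2 called 595 and 900, no expression filter 39 and 6, the replicate block 8 and 1, an exon length offset 68 and 28, and leaving out WT A, B and C 4 and 3; at least 10 counts in every sample and the ribosomal RNA share as covariate left 0 higher. The length offset and the omission of WT A, B and C were chosen after seeing the data. Leaving out 1 tumor gave 0 to 608 higher and 0 to 1248 lower, with both highest counts without WT E (203 and 651 without WT D, 30 and 2 without KO F). Pathway genes called numbered 4 with DESeq2 and 0 to 5 without 1 tumor (2 without WT D, 5 without WT E). Those called without WT E were H2-Eb2, March1, Icosl and Jak1, higher in KO, and Rfxank, lower. Ratios past the threshold numbered 0 to 3 (3 without WT E). The median log2 fold change of the members stayed positive throughout (0.23 without KO F to 0.98 without WT A, B and C).

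Letters A to E are shared by both genotypes but belong to different animals, and same-lettered tumors did not deviate together (r from -0.135 to 0.118), so the replicate block (8 higher, 1 lower) is not a paired analysis.

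Of 200 alternative values for members, 195 kept sign and side of the threshold, H2-Ob passed in 3 and H2-Aa turned in 2 (-0.0203 without KO F, -0.0174 without WT E; leaving out 1 tumor gave up to 0.399, without WT A, and leaving out WT A, B and C 0.805). Of 182 for ratios, 171 kept both, 3 passed, and 8 turned sign by leaving out 1 tumor: H2-Ab1 to Flt3 (0.07 without KO D, 0.13 without WT A, 0.07 without WT B, 0.12 without WT C, lowest -0.393), H2-DMb2 to H2-DMb1 (-0.0237 without KO F, -0.0118 without WT C, highest 0.252), H2-Ab1 to Ptprc (0.000158 without WT A, lowest -0.620) and H2-Oa to H2-DMa (-0.0107 without WT C, highest 0.429). The cause was not tested. With 3 counts as the floor, H2-Eb2 in WT B (4 counts) is near the limit of depth.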

Other observations

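The other marker lists fixed for these tumors were as follows. Of the 3 monocyte markers 1 had an unadjusted p under 0.05 (edgeR), Ly6c2, at 19.9 to 63.3 CPM in KO and 6.53 to 17.3 CPM in WT tumors, a log2 fold change of 1.87 (adjusted p = 0.0663) with no overlap. All 4 neutrophil markers had positive log2 fold changes (median 1.96), 3 with an unadjusted p under 0.05, and their summed level was 157 to 2074 CPM in KO and 97.0 to 883 CPM in WT tumors. Of 3 plasma cell markers 2 were higher at that level, Jchain and Mzb1. T cell markers had a median log2 fold change of 0.12, with 0 of 4 at that level. Of 3 leukocyte markers 2 were higher at it, and 0 of 5 fibroblast and 0 of 3 endothelial markers. All 5 carcinoma epithelium markers had negative log2 fold changes (median -0.57), 3 with an unadjusted p under 0.05. None of these lists had a gene past the adjusted threshold with edgeR, and DESeq2 called 1 monocyte, 2 neutrophil and 1 plasma cell marker. Over all genes, 8.57% were higher and 15.5% lower at an unadjusted p under 0.05 with edgeR. DESeq2 called 3.21% higher and 4.85% lower, and 1.59% and 1.98% were higher and lower without overlap. The 3 acinar markers fell under the filter on low counts and were not tested.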
